A study of Mus musculus with 6 samples.

Results

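The EGR factors Egr1, Egr2, Egr3 and Egr4 and their corepressors Nab1 and Nab2 were followed in testes of 4-day-old mice labelled Foxo1 null or wild type. Members were taken by gene symbol: all probes that the platform's annotation assigns to these 6 genes, of 19057 genes with a named probe. They carry 12 of the 45281 probes on the array, of which 6 belong to Nab1, 2 to Egr3 and 1 each to Egr1, Egr2, Egr4 and Nab2. The family was chosen by its measured values: the null against wild-type differences on these same arrays were known, with Egr2 among the called probes. Differences between the groups are therefore given as a description of the members. Where a member is said to pass or miss the threshold of the fit over all probes, that fit used the contrast by which the family was chosen, so it is no independent test.

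The 3 arrays labelled Foxo1 null and the 3 labelled wild type each hold total RNA of testes of strain FVB mice at postnatal day 4, hybridised to Illumina bead arrays on 1 slide. The labels give neither the allele of Foxo1 nor the cells in which it was removed, and they do not say whether testes of several animals were pooled or whether replicates are separate animals. P-values therefore measure the spread between these samples, which may be technical. Between 20107 and 21665 probes were detected per array. The Foxo1 probes moved in opposite directions: ILMN_2656498 had 6.37, 5.83 and 6.69 in null arrays against 8.08, 8.07 and 8.18 in wild type, and ILMN_2509340 had 8.82, 8.57 and 8.76 in null arrays against 5.69, 5.42 and 4.96 in wild type, both in normalized log2 intensity. Where either probe lies in Foxo1 relative to the removed part was not analysed here.

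EGR proteins are zinc finger transcription factors that bind a GC-rich element. Their genes belong to the immediate early class: growth factor receptors switch them on through the ERK kinases, which act on the serum response factor SRF and its ETS-family partners at CArG boxes. NAB1 and NAB2 bind EGR1, EGR2 and EGR3 and mostly restrain them. Egr2 and Egr3 are among the genes that GDNF, acting through the receptor RET, induces in cultured mouse spermatogonia. Mice that lack Egr4 have infertile males with a block in germ cell development. In female mice, Egr1 is needed for the pituitary hormone gene Lhb.

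Promoter windows were available for 4 of the 6 genes from RefSeq (GRCm38.p6): 5 overlapping or neighbouring starts for Egr2 and 1 start each for Egr4, Nab1 and Nab2. The 250 bases before a start are shown for Egr2 and Egr4, the members with the lowest differences, and for Nab1, whose intervals include 0. Capitals mark CArG boxes, CGTCA (the core of a cAMP response element) and GCGNGGGCG (the element bound by EGR proteins), each searched on both strands. The Egr2 window lies at chr10:67537680-67537929 on the plus strand, the Egr4 window at chr6:85513590-85513839 on the minus strand and the Nab1 window at chr1:52500449-52500698 on the minus strand.
Egr2: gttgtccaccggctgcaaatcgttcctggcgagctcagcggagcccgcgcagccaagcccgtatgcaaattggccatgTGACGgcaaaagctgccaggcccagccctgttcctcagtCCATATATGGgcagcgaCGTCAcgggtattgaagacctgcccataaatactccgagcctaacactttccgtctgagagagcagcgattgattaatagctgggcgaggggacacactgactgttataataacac
Egr4: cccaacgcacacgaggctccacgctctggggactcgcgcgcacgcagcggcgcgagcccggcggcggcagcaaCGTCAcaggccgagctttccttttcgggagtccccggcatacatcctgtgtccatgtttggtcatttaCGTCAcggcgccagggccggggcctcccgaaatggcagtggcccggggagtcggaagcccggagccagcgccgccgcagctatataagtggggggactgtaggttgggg
Nab1: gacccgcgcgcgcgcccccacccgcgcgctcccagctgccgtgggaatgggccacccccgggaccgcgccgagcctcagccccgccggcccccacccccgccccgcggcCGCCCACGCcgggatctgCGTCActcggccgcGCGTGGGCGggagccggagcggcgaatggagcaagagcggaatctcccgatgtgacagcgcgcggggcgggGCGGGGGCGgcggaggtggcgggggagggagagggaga

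The Egr2 window held 1 CArG box, beginning 133 bases before the start, and 2 matches of CGTCA, at 172 and 116 bases. Over the 5 Egr2 windows, which partly overlap, there were 2 distinct CArG boxes, in 4 of the windows. A CArG box was in 1.47% of all 32851 promoter windows of this length. The Egr4 window held 2 matches of CGTCA, at 177 and 109 bases, and neither a CArG box nor GCGNGGGCG. Nab1 had 3 matches of GCGNGGGCG, at 141, 109 and 38 bases, and 1 of CGTCA. The first was found in 4.7% of all windows and the second in 17.8%. The Nab2 window held none of these letters, and GTAAACA, the element bound by FOXO proteins, was in none of the windows of the 4 genes and in 3.17% of all windows. These matches describe letters of the reference genome and say nothing about whether a factor binds there.

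Of the 12 member probes, 10 were tested, which required a detection p-value under 0.05 on at least 3 of the 6 arrays. Levels are normalized log2 intensities, and every difference is null minus wild type on that scale. Egr2 was the 1 member past the threshold of 0.05 on the adjusted p (limma, Benjamini-Hochberg over 20597 probes), where 0.126% of all tested probes were called lower; 0 member probes were called higher, beside 0.00971% of all tested probes. In 3 of the 10 tested probes, those of Egr2, Egr3 and Egr4, all null arrays lay below all wild-type arrays, which held for 7.73% of all tested probes. Because the members were chosen with this contrast known, nothing is read from these counts.

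**Figure D1:**
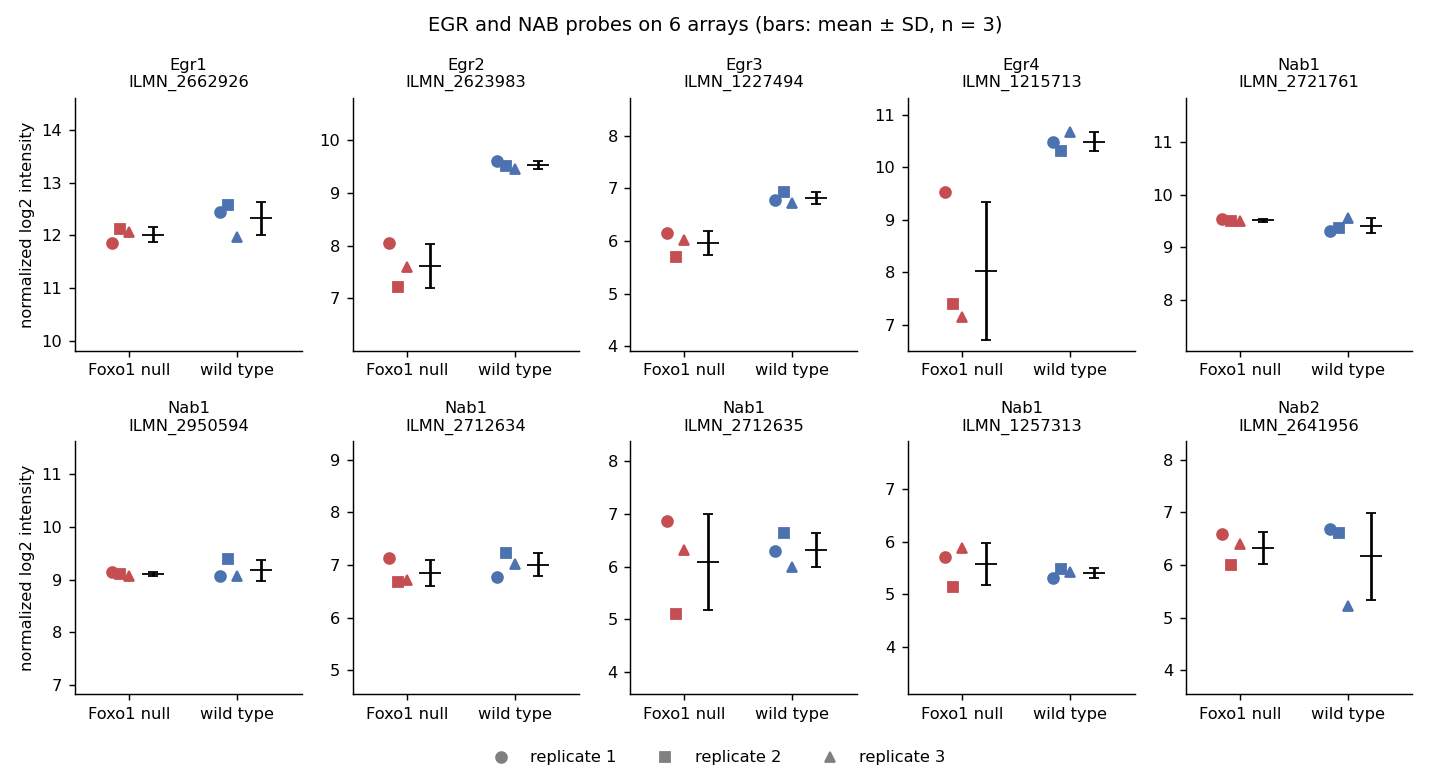
Normalized log2 intensity (vertical axis, equal span in every panel) of the 10 tested EGR and NAB probes in Foxo1 null arrays (left, red) and wild-type arrays (right, blue), with a marker shape per replicate and the mean ± SD (n = 3) beside the points. The groups are apart for Egr2, Egr3 and Egr4, with null replicate 1 of Egr4 at 9.52 above the other null arrays, and overlap for Egr1, Nab1 and Nab2.

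Egr2 (ILMN_2623983), which in other tissues directs hindbrain patterning and myelination, had normalized log2 levels of 8.05, 7.21 and 7.59 in null arrays, against 9.60, 9.52 and 9.45 in wild type. The null arrays were all lower, and they were spread more widely than the wild-type arrays. The mean was 7.62 ± 0.42 in null and 9.52 ± 0.08 in wild type (SD, n = 3 each), a difference of -1.91 (SE 0.22), or 3.75-fold lower in null. On the scanner, before any normalization, the probe gave 379, 245 and 339 in null arrays and 821, 766 and 756 in wild type. The standard error over beads on these arrays lay between 8.49 and 38.7, far below the gap between the groups. Only 17 of the 20597 tested probes had a lower difference than Egr2. The call was kept without null replicate 1 (difference -2.13) and lost without any other single array, where the difference stayed between -1.70 and -1.95. It was also lost when dim probes were not filtered out.

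Egr4 (ILMN_1215713), the member tied to male fertility in mice, had the lowest difference of the family and the widest spread. Its log2 levels were 9.52, 7.40 and 7.16 in null arrays, against 10.48, 10.30 and 10.67 in wild type. Null replicate 1 stood apart from the other null arrays, nearer to the lowest wild-type array but still below it. The mean was 8.03 ± 1.30 in null and 10.49 ± 0.18 in wild type (SD, n = 3 each), a difference of -2.46 (SE 0.54), or 5.5-fold lower in null. The scanner intensities were 888, 265 and 279 in null arrays and 1436, 1256 and 1630 in wild type. Bead standard errors of 36.4, 15.7 and 12.8 on the null arrays were far smaller than the gap between null replicate 1 and the others. Only 3 tested probes had a lower difference, but Egr4 did not pass the threshold. With an offset of 50 in place of 16 in the background step it passed on all 6 arrays, at -2.28. Without null replicate 1 the difference was -3.21 and passed, and without null replicates 2 and 3 in turn it was -2.15 and -2.03.

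**Figure D2:**
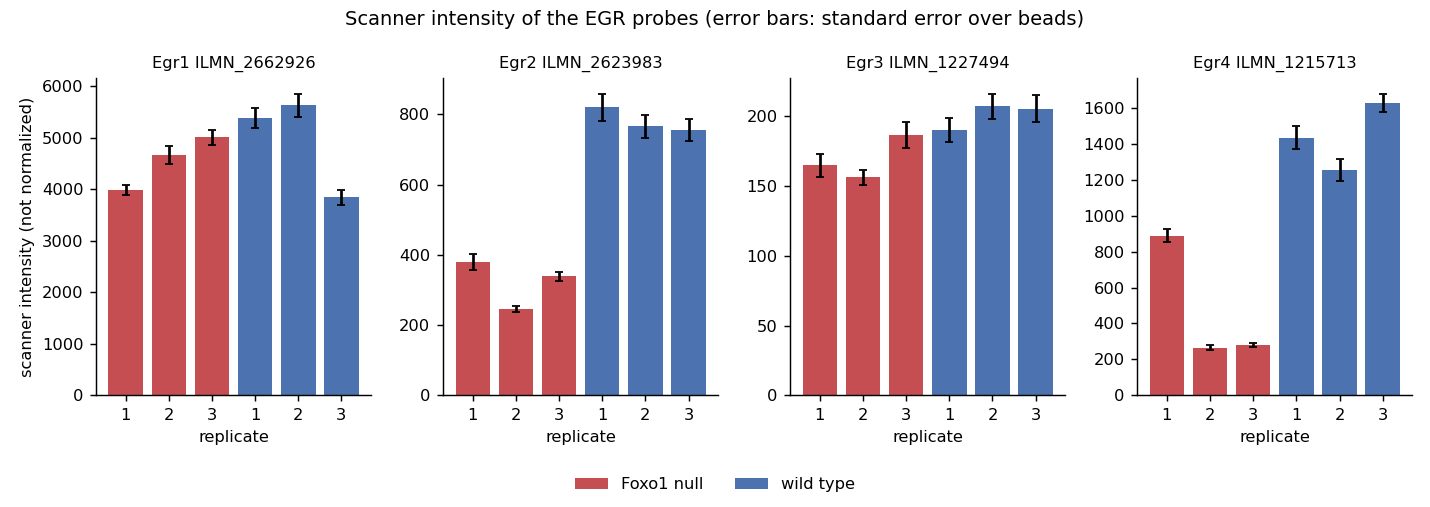
Scanner intensity before normalization (vertical axis, from 0, a scale of its own per panel) of the brightest Egr1, Egr2, Egr3 and Egr4 probes on each array, with Foxo1 null arrays in red to the left of wild-type arrays in blue; error bars are the standard error over beads. Egr2 lies between 245 and 379 in null arrays and between 756 and 821 in wild type, and Egr4 is at 888 on null replicate 1 against 265 and 279 on the other null arrays.

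Egr3 (ILMN_1227494), which is needed for muscle spindles in mice, had lower levels close to background. Its log2 levels were 6.15, 5.70 and 6.02 in null arrays, against 6.79, 6.94 and 6.73 in wild type. The groups did not overlap, and neither spread was wide. The mean was 5.96 ± 0.23 in null and 6.82 ± 0.11 in wild type (SD, n = 3 each), a difference of -0.86 (SE 0.17), or 1.81-fold lower in null, and it did not pass the threshold. The scanner gave 165, 156 and 186 in null arrays and 190, 207 and 206 in wild type, where an array's median probe gave 116 to 141. The size of this difference depended on how background was removed: it was -0.39 with no background correction. The second Egr3 probe, ILMN_2653543, was detected on 0 of 3 null arrays and on 2 of 3 wild-type arrays and was not tested. Its measured means were 4.89 in null and 5.26 in wild type.

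Egr1 (ILMN_2662926), an immediate early factor often used as a marker of recent stimulation, was bright on all arrays and its groups overlapped. Its log2 levels were 11.85, 12.12 and 12.07 in null arrays, against 12.44, 12.57 and 11.97 in wild type. Wild-type replicate 3 fell among the null arrays, below 2 of them. The mean was 12.02 ± 0.14 in null and 12.33 ± 0.31 in wild type (SD, n = 3 each), a difference of -0.31 (SE 0.19) with a 95% interval from -0.75 to 0.12. That interval ends well short of the Egr2 and Egr4 differences. The scanner intensities were 3982, 4662 and 5015 in null arrays and 5386, 5635 and 3844 in wild type.

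**Figure D3:**
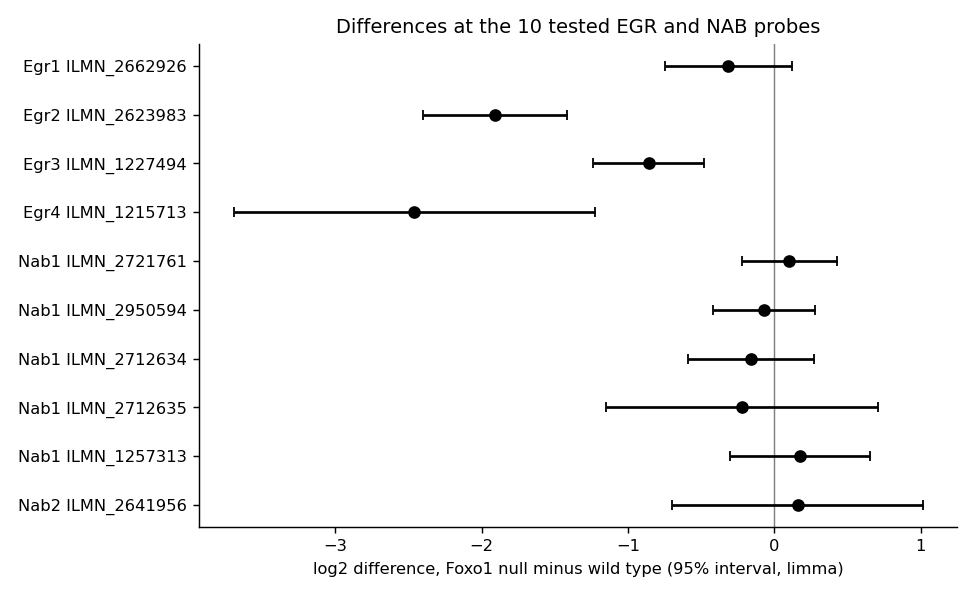
Difference in normalized log2 intensity, Foxo1 null minus wild type (horizontal axis), at the 10 tested EGR and NAB probes, with 95% intervals from limma (n = 3 per group). Egr4 at -2.46, Egr2 at -1.91 and Egr3 at -0.86 have intervals below 0, and the intervals of Egr1, the 5 Nab1 probes and Nab2 include 0.

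The corepressors had overlapping groups throughout. Nab1 was read by 5 tested probes whose differences ran from -0.22 to 0.17, none past the threshold, with overlapping groups at each. At the brightest, ILMN_2721761, the log2 levels were 9.55, 9.50 and 9.51 in null arrays, against 9.31, 9.37 and 9.57 in wild type. The difference was 0.10 (SE 0.14), with a 95% interval from -0.22 to 0.42. At the next, ILMN_2950594, the levels were 9.14, 9.10 and 9.07 in null arrays, against 9.06, 9.40 and 9.06 in wild type, a difference of -0.07 (SE 0.15) and a 95% interval from -0.42 to 0.28.

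The dimmer Nab1 probes were less precise. ILMN_2712634 was at -0.16 (SE 0.19) and ILMN_1257313, designed on a separate cDNA record of the gene, at 0.17 (SE 0.21). ILMN_2712635 had a difference of -0.22 (SE 0.41), with null replicate 2 at 5.09 and undetected while null replicate 1 stood at 6.87. The remaining Nab1 probe, ILMN_2657093, was below the detection limit throughout and left untested.

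Nab2 (ILMN_2641956), itself an EGR-induced gene in cultured cells, had log2 levels of 6.59, 5.99 and 6.39 in null arrays, against 6.69, 6.60 and 5.21 in wild type. The null arrays lay within the range of the wild-type arrays, which wild-type replicate 3 set at its lower end. The mean was 6.32 ± 0.30 in null and 6.17 ± 0.83 in wild type (SD, n = 3 each), a difference of 0.16 (SE 0.37). The 95% interval, from -0.70 to 1.02, is too wide to tell a lower Nab2 level of the Egr1 size from none. Without wild-type replicate 3 the difference was -0.32.

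The null arrays were ordered alike for Egr2, Egr3 and Egr4 only in that null replicate 1 was the highest. Relative to the wild-type mean, null replicates 1, 2 and 3 were at -1.47, -2.32 and -1.93 for Egr2 and at -0.67, -1.11 and -0.79 for Egr3. For Egr4 they were at -0.96, -3.09 and -3.33. For Egr1 the order was different, with null replicate 1 lowest at -0.48 and the others at -0.21 and -0.26. Within wild type Egr2 stayed between -0.07 and 0.08, the smallest span of the 4 factors.

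Germ cell markers had lower levels on the same null arrays. Of the 13 listed germ cell genes 11 were tested, and 0 passed the threshold over all probes (limma; 8 had an unadjusted p under 0.05, all lower). Over all tested probes, 4.75% had an unadjusted p under 0.05 and a lower level in null, and 4.03% a higher one. All 11 had negative differences, with a median of -1.04, beside 0.01 over all 11145 tested genes. This list, like the other gene lists, was chosen with earlier results of these data known, so its counts are no independent test. Nanos3 was detected on 0 null arrays and 3 wild-type arrays, so it entered the fit only through wild type. The mean of the list relative to wild type was -0.79, -1.38 and -1.0 on null replicates 1, 2 and 3, and -0.12, -0.31 and 0.42 on the wild-type arrays. Sall4, a zinc finger factor of germ cells named after its values were seen, was at -2.35 (SE 0.51), with null replicates 1, 2 and 3 at -1.10, -3.13 and -2.81 relative to the wild-type mean, close to Egr4. Ddx4, an RNA helicase of germ cells, was at -0.78 (SE 0.22) and Dazl, a germ cell RNA-binding protein, at -0.65 (SE 0.29). In whole testes, fewer cells of a type and less RNA per cell cannot be told apart, and the part of germ cell number in the EGR differences was not tested.

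**Figure D4:**
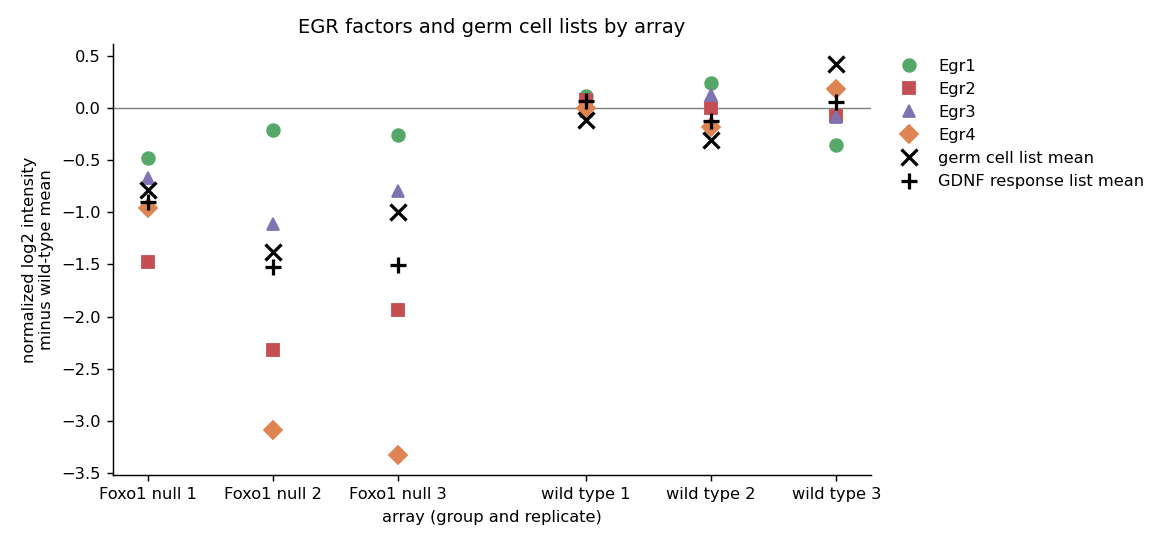
Normalized log2 intensity minus the wild-type mean (vertical axis) for Egr1, Egr2, Egr3 and Egr4 and for the means of the germ cell and GDNF response lists, on each Foxo1 null array (left) and wild-type array (right). On null replicates 2 and 3 Egr4 lies at -3.09 and -3.33, below the germ cell list at -1.38 and -1.0, while on null replicate 1 it lies at -0.96 beside the list at -0.79; single germ cell genes such as Sall4, at -3.13 and -2.81 on null replicates 2 and 3, lay near the Egr4 values.

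Cell types known elsewhere to use EGR factors were covered by few detected markers. Of the 6 T cell markers, only Cd3e was tested, at 0.20 (SE 0.18). Of the 6 Schwann cell markers, the cells in which Egr2 drives myelin genes, Sox10 and S100b were tested, at 0.48 (SE 0.23) and -0.01 (SE 0.22). Both lists had 0 members past the threshold (limma; 0 at an unadjusted p under 0.05). Among somatic cells of the testis the Sertoli marker Sox9 was at 0.18 (SE 0.15) and, at its dimmer probe, 0.49 (SE 0.21), the Leydig marker Star at -0.81 (SE 0.29), the endothelial marker Pecam1 at -0.09 (SE 0.19), with its dimmer probe at 0.30 (SE 0.18), and the macrophage marker Csf1r at 0.48 (SE 0.22). In each of these 4 lists 0 members passed the threshold (limma); an unadjusted p under 0.05 was reached by 1 Sertoli gene and 2 Leydig genes, all lower, and by 1 endothelial gene, higher. The mean of the 6 tested macrophage genes of 7 listed was 0.20, 0.62 and 0.64 on null replicates 1, 2 and 3, and -0.08, 0.13 and -0.05 on the wild-type arrays, and 3 of them had an unadjusted p under 0.05, all higher. All 6 tested Leydig genes had negative differences, with a median of -0.24, beside 0.01 over all tested genes. An unadjusted p under 0.05 (limma) was reached by 4.75% of all tested probes with a lower level in null and by 4.03% with a higher one. Macrophages also express EGR factors, and the part of these cells in the EGR values was not tested.

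Duct epithelium and peritubular markers had higher levels on the null arrays. The mean of the 6 tested duct genes of 8 listed was 0.52, 2.13 and 1.58 on null replicates 1, 2 and 3, and -0.44, 0.37 and 0.06 on the wild-type arrays. The mean of the 5 tested peritubular genes of 6 listed was 0.29, 0.76 and 1.37 on the null arrays, and -0.10, 0.19 and -0.09 on the wild-type arrays. Among these, Krt19, an epithelial keratin, was at 1.49 (SE 0.43) and Acta2, smooth muscle actin, at 0.48 (SE 0.18). Krt19 was detected on only 4 arrays and Pax8, another of the tested duct genes, on 3. Some of their levels are therefore background readings, which also enter the duct list mean, and 1.49 is no exact size. In both lists 0 members passed the threshold (limma; 5 in each had an unadjusted p under 0.05, all higher, beside 4.03% of all tested probes). The part of duct epithelium and peritubular cells in the EGR values was not tested.

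The pathway around the EGR genes, its inputs, partners and targets, was described by 6 gene lists, each gene entering by its brightest tested probe. In all of them together 1 gene, Nanos2, passed the threshold, against 0.136% of all tested probes called in either direction. In the list of GDNF-responsive genes of spermatogonia, 1 of 8 tested members (11 listed) was lower, 0 were higher and 7 did not pass. An unadjusted p under 0.05 (limma) was reached by 7, all lower, beside 4.75% of all tested probes. Of the 8, 7 had negative differences, with a median of -1.18. That median was -0.61 with no background correction and -0.59 with the authors' normalized values. Nanos2, an RNA-binding protein of male germline stem cells, had an adjusted p = 0.0239 (limma) at -1.91 (SE 0.20), all 3 null arrays lying below wild type. It was detected on 2 of the 3 null arrays, and the size of its difference depended on how background was removed. The Nanos2 difference was -1.27 with an offset of 50, -0.80 with no background correction and -0.78 with the authors' normalized values. Its call was kept without null replicate 1 and lost without any other single array (adjusted p from 0.0628 to 0.135, limma) and when dim probes were kept (limma, adjusted p = 0.0515), and it left the fit where detection on all 6 arrays was required. Values of members that did not pass were -3.20 (SE 0.45, adjusted p = 0.052, limma) for Ret, the GDNF receptor kinase, -1.78 (SE 0.34) for Lhx1, a LIM homeobox factor, and -1.33 (SE 0.29) for Id4, an inhibitor of helix-loop-helix factors, whose dimmer probe was at -0.71 (SE 0.22). Bcl6b, a transcriptional repressor, was at -0.91 (SE 0.33), and Etv5, an ETS factor, at -0.43 (SE 0.16). A dimmer Ret probe, ILMN_3043469, did pass, at -1.75 (SE 0.20, adjusted p = 0.0239, limma), with signal above the detection limit on only 4 arrays. For ILMN_1236477, the brighter one, just 1 null array cleared that limit, against 3 in wild type. Its remaining null levels are therefore background readings, and -3.20 is no exact size of the Ret difference. Null replicate 1 was again the highest null array for the brighter Ret probe, at 6.45 against 4.53 and 4.80, with wild-type levels of 8.62, 8.14 and 8.63. Nanos2 did not have this order, at 5.01, 5.40 and 5.08 in null arrays, against 6.83, 6.96 and 7.42 in wild type. Lhx1 was highest on null replicate 2, at 6.89, and Id4 on null replicate 3, at 8.20, whereas Bcl6b and Etv5 were highest on null replicate 1.

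Genes that report or limit ERK signalling had differences on both sides of 0. Of the 11 tested ERK feedback genes (14 listed) 0 passed (limma; 1 had an unadjusted p under 0.05), and the median difference was -0.07. Dusp6, a phosphatase that turns ERK off, was at -0.35 (SE 0.16) with all null arrays below wild type; its dimmer probes were at -0.78 (SE 0.19) for ILMN_2701321 and -0.27 (SE 0.15) for ILMN_1248537, and neither passed. Dusp4, a related phosphatase, was at -0.07 (SE 0.19). Spry4, a Sprouty inhibitor, was at 0.18 (SE 0.29) and Spred1, a related inhibitor, at 0.17 (SE 0.13) with all null arrays above wild type. In this list 2 genes had all null arrays below wild type and 1 had them above, beside 7.73% and 6.23% of all tested probes. The gene under an unadjusted p of 0.05, named after its value was seen, was Etv4, an ETS factor, at -1.40 (SE 0.31, adjusted p = 0.188, limma). Its log2 levels were 6.67, 5.74 and 5.55 in null arrays, against 7.77, 7.33 and 7.05 in wild type, the same order of null arrays as Egr4. Spry2 was detected on 1 array and not tested.

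The other immediate early genes had differences on both sides of 0. Of 15 tested members (27 listed) 0 passed (limma; 0 at an unadjusted p under 0.05), with a median of 0.04 and differences from -0.21 to 0.29. Fos and Jun, the AP-1 subunits, were at -0.04 (SE 0.32) and 0.00 (SE 0.20), Junb at 0.04 (SE 0.33), and Klf4, a Krüppel-like factor, at 0.01 (SE 0.21), with its dimmer probes at -0.13 and 0.32. Junb had log2 levels of 5.66, 6.74 and 6.59 in null arrays, against 6.64, 6.48 and 5.73 in wild type. Its 2 lowest arrays, null replicate 1 and wild-type replicate 3, were also the 2 lowest for Egr1. Detection was too rare to test Ier2 and Nr4a1 (0 arrays), Atf3 (2 arrays) or Myc (1 array at the better of its probes).

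**Figure D5:**
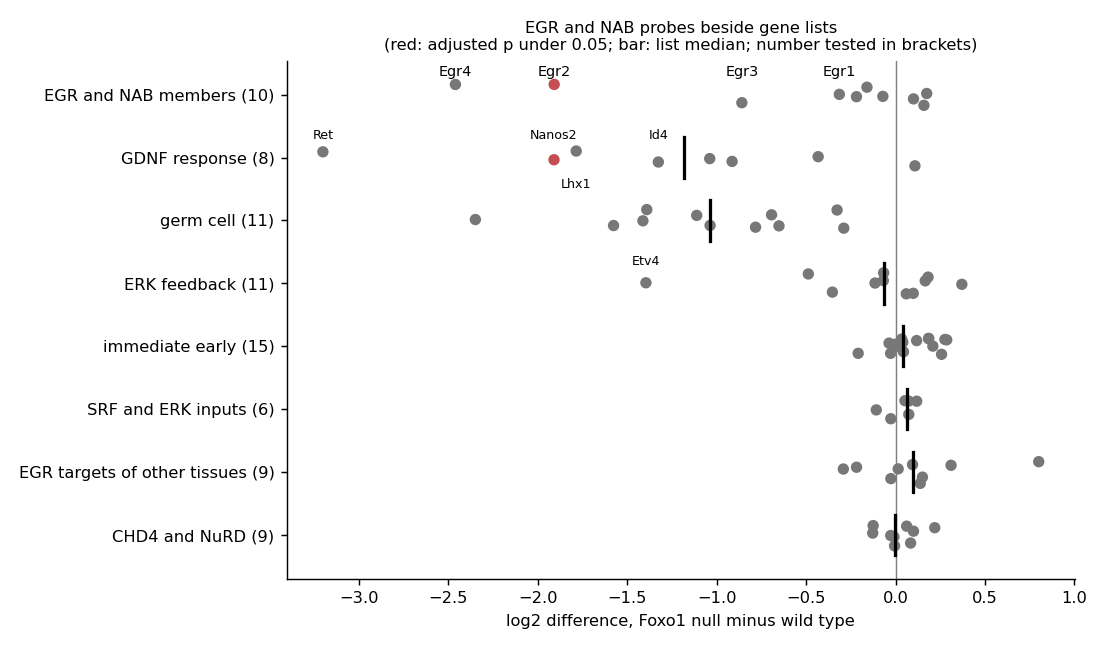
Difference in normalized log2 intensity, Foxo1 null minus wild type (horizontal axis), for the EGR and NAB probes (top row) and the tested genes of the 6 pathway lists and the germ cell list, 1 point a probe, with the number tested in brackets, a bar at each list's median and probes under an adjusted p of 0.05 in red. The GDNF response and germ cell lists have medians of -1.18 and -1.04, and the medians of the other lists lie between -0.07 and 0.09.

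Among inputs, corepressor partners and known targets no gene passed the threshold. Of 6 tested SRF and ERK inputs (13 listed) 0 passed (limma; 0 at an unadjusted p under 0.05), with a median of 0.06; Srf was at -0.03 (SE 0.17) and Elk3, an ETS partner of SRF, at 0.12 (SE 0.21). NAB2 recruits CHD4, the ATPase of the NuRD complex: Chd4 was at -0.03 (SE 0.22) at its brightest probe. Its other tested probes disagreed, at -0.74 (SE 0.21) for ILMN_2697652, -0.40 (SE 0.20) for ILMN_2654822 and 0.10 (SE 0.23) for ILMN_1256696, and none passed. In that list 0 of 9 tested genes (11 listed) passed (limma; 0 at an unadjusted p under 0.05; median -0.01).

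Of genes described as EGR targets in nerve, pituitary or lymphocytes, 0 of 9 tested members (16 listed) passed (limma; 1 had an unadjusted p under 0.05), with a median of 0.09. Ngfr, a neurotrophin receptor, was at 0.09 (SE 0.29) and Pmp22, a myelin protein, at 0.14 (SE 0.16). Id2, an inhibitor of helix-loop-helix factors, was at 0.80 (SE 0.31, adjusted p = 0.501, limma), with all 3 null arrays above wild type, where 6.23% of tested probes had that order. Its dimmer probes were at 1.00 (SE 0.31) for ILMN_1236868 and 1.02 (SE 0.42) for ILMN_2887239, and neither passed.

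The genes most like each factor over the 6 arrays were taken by Pearson correlation of normalized log2 levels. For Egr2 they were Crygs (0.996), a lens crystallin, Hmbox1 (0.995), a homeobox factor, and Krr1 (0.990), a ribosome assembly factor. For Egr3 they were Coq10b (0.998), Eral1 (0.995) and again Hmbox1 (0.993). For Egr4 they were Greb1l (0.996), Atp11b (0.995) and Ubfd1 (0.994), and for Egr1 Eif3a (0.993), Vps35l (0.989) and Gtf3c6 (0.988). No p is attached, because each is the highest of 20596 probes over 6 points that share 2 groups and 1 slide. Above 0.95 there were 135 probes for Egr2, 107 for Egr3, 147 for Egr4 and 26 for Egr1.

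The nearest genes of the corepressors were taken in the same way. For the brightest Nab1 probe they were Prmt6 (0.994), Pdpn (0.992) and Gm2a (0.990), with 37 probes above 0.95. For the next brightest they were Bbs9 (0.988), Sdhb (0.985) and Xpr1 (0.971), with 14 probes, so the 3 nearest genes of the 2 brightest Nab1 probes were different. For ILMN_2712634 they were Ltbp1 (0.992), Adgrl4 (0.991) and Cep89 (0.990), for ILMN_2712635 Sh3tc2 (0.995), Herpud2 (0.995) and Parpbp (0.993), and for ILMN_1257313 Arhgap18 (0.995), Zfp507 (0.991) and Asxl3 (0.987). For Nab2 they were Kif1b (0.995), Ccdc137 (0.993) and Ranbp10 (0.990), with 83 probes above 0.95.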

How the data were processed

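The scanner values, deposited without normalization, are per the file headers an intensity averaged over beads, its bead standard error and bead number, and a detection p-value. A second table of intensity, normalized by the authors by a method not given in the sources used here, ranked probes as the scanner did (Spearman correlation 1 on every array) and served as an alternative; its column medians were 130.61 to 130.71. The submitters' processing notes name BeadStudio. Starting from the deposited intensities, values were background-corrected, quantile-normalized and set to log2 with limma 3.58.1 (neqc, offset 16) in R 4.3.3. Probes detected (p-value under 0.05) on at least 3 arrays, 20597 in all, entered lmFit and eBayes without covariates, with two-sided p-values adjusted by Benjamini-Hochberg. The fit was also run on simulated data, drawn with independent noise for each probe, and no result given here rests on that run. Gene names came from the platform annotation, updated to GRCm38.p6 symbols.

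The members and the 15 gene lists (160 entries) were chosen with earlier results of these data known. Text names every member probe, set genes of each list, list genes past the threshold and the 3 genes most correlated with each tested member probe. Alternatives covered background, scaling, filter, variance model, array weights, replicate number, slide position, threshold and each array left out.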

Additional observations from a re-analysis of the deposited data

How the results depend on the processing

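The count of EGR and NAB probes called, 1 of 10 tested, was 2 with an offset of 50 and 0 with no filter on dim probes (4 at an unadjusted p under 0.05), and between 0 and 2 with 1 array left out; it was 1 in the other alternatives. The count over all probes, 28, was 62 with no background correction, 87 with an offset of 50, 43 with median scaling, 53 with the authors' values, 2 with no filter, 18 with detection on all 6 arrays, 103 with a trended, robust prior, 109 with array weights, 76 at an adjusted p under 0.1, and 1 to 70 with 1 array left out (limma). The count of pathway list genes, 1, was 3 with no background correction, with an offset of 50 and with slide position, 2 with median scaling, loess, the authors' values and an adjusted p under 0.1, 4 with the trended prior and array weights, 0 with no filter (11 at an unadjusted p under 0.05) and with detection on all arrays (7), and 0 to 3 with 1 array left out. The cause of these moves was not tested. The labels name no pairs of samples, and replicate numbers only follow the array order within a group. Deviations of same-numbered arrays had correlations of 0.16, -0.10 and 0.11, which cannot show or exclude a pairing. With the replicate number as a block 68 probes, 1 member probe and 4 pathway genes were called. Egr2 and Egr4 kept negative differences in all 17 alternatives, from -2.13 to -1.49 and from -3.21 to -2.02, as did Egr3, from -0.95 to -0.38, and Egr1, from -0.49 to -0.19. Nab2 was negative in 2 of 17. Signals near background limit Egr3, Nab2 and the dim Nab1 probes.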
